A study of Mus musculus with 16 samples.

Results

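The proteasome genes described here were the 49 of 22440 genes listed in each library whose symbol starts with Psm, a letter from a to g and a digit. They comprised 19 genes of the core particle, 17 of the regulatory particle and 13 others, namely 4 activators (Psme1 to Psme4), the inhibitor Psmf1, 7 assembly chaperones and Psmc3ip. Psmc3ip is caught by its name alone, since its protein works in meiotic recombination and is no proteasome subunit. The regulatory particle subunits Adrm1 and Shfm1 are missed by this rule and are counted below among the partners.

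RNA was measured in 4 libraries of primary cortical neurons taken from Swiss-Webster mouse embryos on day 16 and kept in culture, with 1 library per group. The ETOP library came from neurons given etoposide at 5 µM, a drug that traps topoisomerase II on cut DNA, for a time that the labels do not state, and the CTRL library is its control. The NMDA library came from neurons given NMDA, an agonist of a glutamate receptor class, which the labels put at 50 µM for 10 minutes with 10 minutes of recovery for most experiments, and the CTRL2 library is its control. The titles of CTRL and CTRL2 name no treatment, and no vehicle is given. The culture's sex, litter and number of embryos are not stated, and 12 chromatin samples of the series were not analysed here.

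With 1 library per group there are no replicates, no test across genes could be run, and no difference below has a replicate check. All levels are FPKM (fragments scaled by transcript length and by library size), as the authors made them. Low values put the depth at about 11700000 fragments for ETOP and 14500000 fragments for CTRL, and at about 18300000 fragments for NMDA and 19600000 fragments for CTRL2. Every neuronal marker listed was at 1 FPKM or more in all 4 libraries, with 6 of 6 markers and a summed level of 326 FPKM in ETOP against 540 in CTRL, and of 1501 in NMDA against 1410 in CTRL2. The planned neuronal marker Map2 is not among these 6. Astrocyte markers summed to 42.7 FPKM in ETOP against 81.2 in CTRL, and to 607 in NMDA against 644 in CTRL2, with none of 7 at 0. Oligodendrocyte lineage markers summed to 5.39 FPKM in ETOP, where Sox10 of the 8 was listed at 0, against 20.6 in CTRL, and to 190 in NMDA against 195 in CTRL2. Microglial markers summed to 0.372 FPKM in ETOP, with C1qb and Tmem119 of the 9 at 0, against 0.441 in CTRL, with C1qa and C1qb at 0, and to 3.77 in NMDA against 4.66 in CTRL2. In bulk RNA, fewer cells of a type and less RNA per cell cannot be told apart from these values. Proteasome subunits have processed pseudogene copies in the mouse, and how the authors assigned fragments that match several places is not stated.

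The proteasome is the main protease for intracellular proteins tagged with ubiquitin. Its barrel-shaped core is built of alpha rings, which form the gate, around beta rings, which hold the cutting sites, and regulatory particles on the ends bind ubiquitin, remove it and thread the substrate in with a ring of ATPases. In neurons the proteasome takes part in synaptic plasticity and in clearing damaged proteins, and when its activity is lowered mammalian cells raise many subunit genes together through the transcription factor Nfe2l1.

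Promoter windows of 250 bases before to 50 bases after the start were taken from RefSeq for the mouse build GRCm38.p6 and matched 41 of the 49 genes, with 44 windows. Nfe2l1 is known to bind the antioxidant response element, and its core, searched as TGACNNNGC on both strands, was present in 13.6% of the 44 windows and in 12.4% of all 32851 windows of the table. Among the core and regulatory subunits 4 windows held it, at Psmb5, Psmb6, Psmc6 and Psmd12. These are shown with that of Psmd2, the regulatory subunit with the lowest log2 fold, as defined below, in the etoposide pair. By plain FPKM ratio of ETOP to CTRL, Psmd11 was lower, at 0.644 against 0.660. Capitals mark the antioxidant response element core, the GC box GGGCGG and its reverse complement, and CCAAT on either strand. The windows lie at chr14:54617946-54618245 on the minus strand for Psmb5, and on the plus strand at chr11:70525107-70525406 for Psmb6, chr14:45329574-45329873 for Psmc6, chr11:107479278-107479577 for Psmd12 and chr16:20651402-20651701 for Psmd2, and each is printed 5′ to 3′ along its gene.
Psmb5: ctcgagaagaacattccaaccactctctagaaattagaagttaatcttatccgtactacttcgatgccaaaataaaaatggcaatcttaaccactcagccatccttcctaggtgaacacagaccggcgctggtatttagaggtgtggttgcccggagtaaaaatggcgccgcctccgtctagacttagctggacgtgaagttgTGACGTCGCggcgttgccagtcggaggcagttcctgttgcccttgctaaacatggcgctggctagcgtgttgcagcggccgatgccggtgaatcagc
Psmb6: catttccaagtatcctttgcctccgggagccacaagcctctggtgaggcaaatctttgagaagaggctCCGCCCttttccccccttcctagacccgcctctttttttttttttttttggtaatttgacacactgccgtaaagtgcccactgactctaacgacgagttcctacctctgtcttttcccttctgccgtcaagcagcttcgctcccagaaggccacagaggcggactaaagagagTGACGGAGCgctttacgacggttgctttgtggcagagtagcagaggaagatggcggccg
Psmc6: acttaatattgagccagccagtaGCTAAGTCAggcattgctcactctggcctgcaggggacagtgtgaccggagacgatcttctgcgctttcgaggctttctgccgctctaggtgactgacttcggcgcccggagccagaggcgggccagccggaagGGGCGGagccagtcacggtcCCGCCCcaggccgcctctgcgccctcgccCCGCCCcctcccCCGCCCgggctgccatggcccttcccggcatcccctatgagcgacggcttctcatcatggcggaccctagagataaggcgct
Psmd12: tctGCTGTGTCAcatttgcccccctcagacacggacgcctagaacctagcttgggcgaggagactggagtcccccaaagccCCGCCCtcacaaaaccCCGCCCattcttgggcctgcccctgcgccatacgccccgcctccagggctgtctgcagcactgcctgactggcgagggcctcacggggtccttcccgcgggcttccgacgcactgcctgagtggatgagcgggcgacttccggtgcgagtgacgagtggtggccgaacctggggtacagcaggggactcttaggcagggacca
Psmd2: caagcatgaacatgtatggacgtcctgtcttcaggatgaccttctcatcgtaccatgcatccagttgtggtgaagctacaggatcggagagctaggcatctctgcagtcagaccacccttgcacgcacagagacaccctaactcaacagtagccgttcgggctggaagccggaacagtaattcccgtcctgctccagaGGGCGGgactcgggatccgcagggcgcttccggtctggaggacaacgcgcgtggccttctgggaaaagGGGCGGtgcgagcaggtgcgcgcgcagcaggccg
In Psmb5 the match TGACGTCGC lay 47 bases upstream of the start, and in Psmb6 the match TGACGGAGC lay 9 bases upstream. In Psmc6 and Psmd12 the matches were on the other strand, GCTAAGTCA at 227 bases and GCTGTGTCA at 247 bases upstream. The GC box was in 41.7% of the 12 core windows and 66.7% of the 15 regulatory windows, against 35.7% of all windows. CCAAT was in 50% of the core windows and 26.7% of the regulatory windows, against 37.4% of all windows, and TATAAA in 8.33% and 13.3%, against 13.6%. Matches of letters are descriptions and show no binding.

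Most proteasome genes were among the abundant messages of these neurons, and by median the core stood above the regulatory particle in every library. The median level of the 14 constitutive core genes was 43.4 FPKM in ETOP and 37.6 in CTRL, and 145 in NMDA and 146 in CTRL2. For the 17 regulatory genes it was 26.7 FPKM in ETOP and 27.8 in CTRL, and 83.7 in NMDA and 80.8 in CTRL2. The core median was thus 1.63 times the regulatory median in ETOP, 1.35 times in CTRL, 1.74 times in NMDA and 1.80 times in CTRL2. In ETOP and in CTRL 12 of the 14 core genes were above the regulatory median, all but Psma3 and Psma5. In NMDA and in CTRL2 all 14 were above it. Within each library the median core gene ranked between percentiles 97.5 and 98.5 of all listed genes by FPKM, and the median regulatory gene between 95.4 and 97.2.

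Psmb4, a structural beta subunit, had the highest level of these 31 genes in all 4 libraries, with 89.2 FPKM in ETOP against 83.0 in CTRL, and 261 in NMDA against 254 in CTRL2. Psmd11, a lid subunit, had the lowest in all 4, with 5.95 FPKM in ETOP against 9.24 in CTRL, and 27.5 in NMDA against 27.8 in CTRL2. The order of the 31 genes by FPKM was close within each pair, with a Spearman rho of 0.92 between ETOP and CTRL and 0.99 between NMDA and CTRL2, while CTRL2 and CTRL gave 0.85. These are correlations across genes, which share gene length and base composition between libraries and are not replicates.

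**Figure D1:**
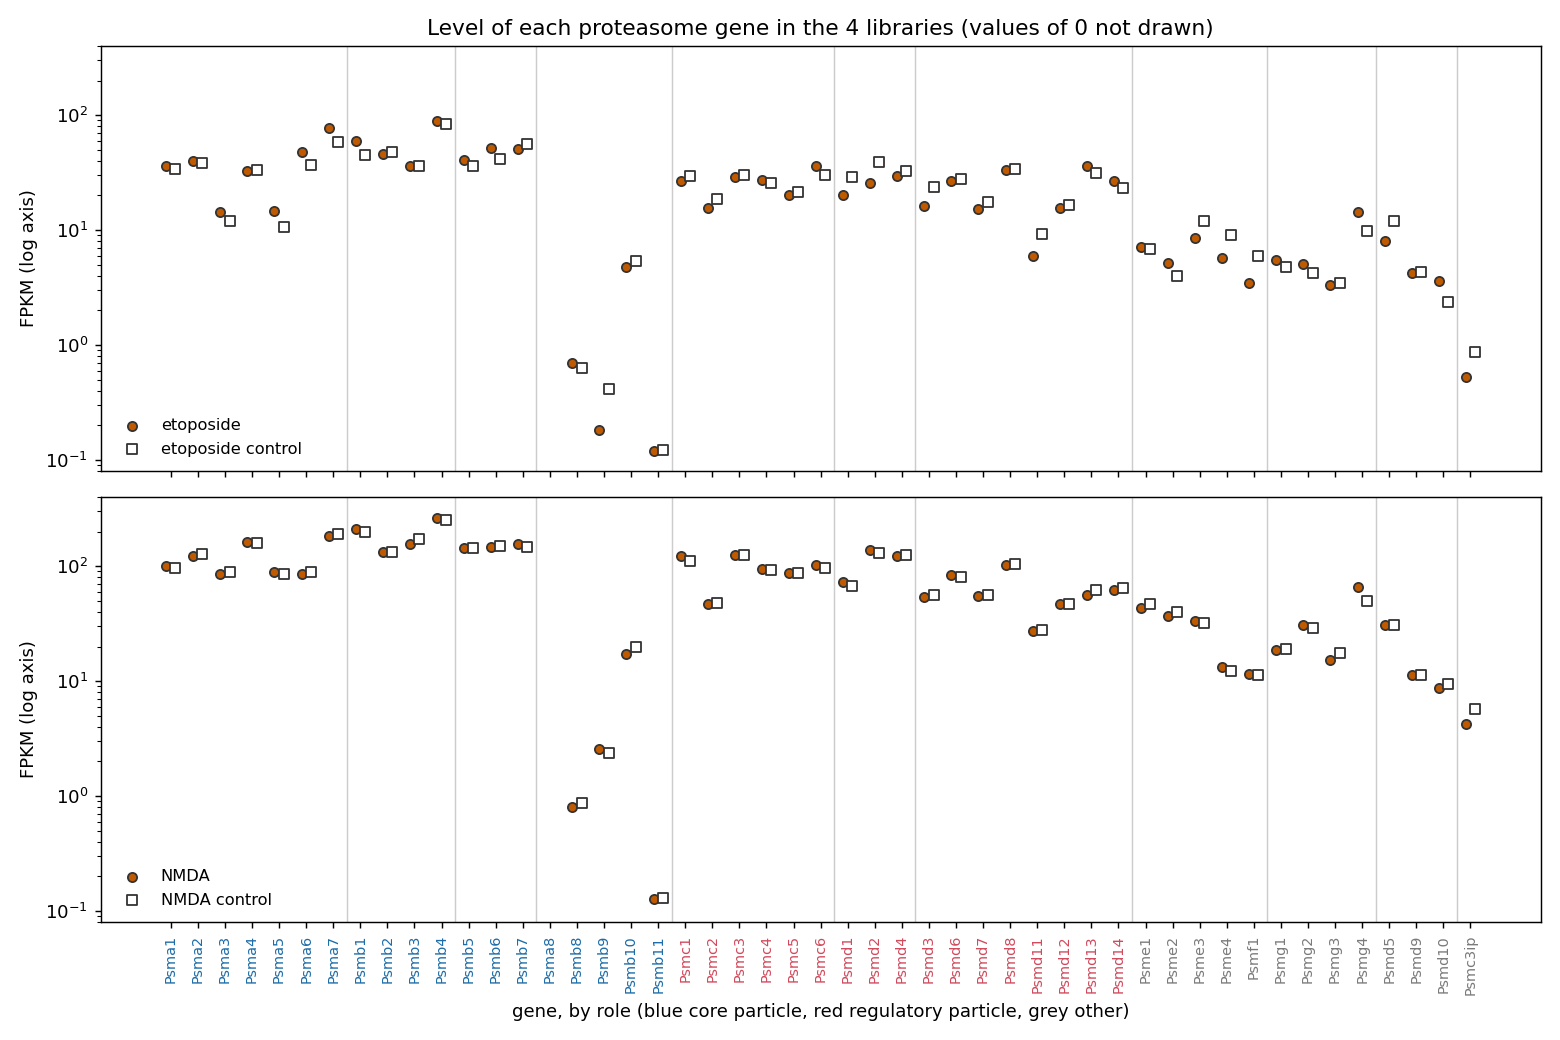
Level of each of the 49 proteasome genes in FPKM (log axis) by role, with the ETOP and CTRL libraries in the upper panel and the NMDA and CTRL2 libraries in the lower. Each symbol is 1 library; core genes (blue) lie above regulatory genes (red) by median in each library, Psmb11 is the lowest gene drawn in each library, and Psma8, listed at 0, is not drawn.

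The inducible and tissue-restricted core genes were near the bottom of the range. Psma8, an alpha subunit of germ cells, was listed at 0 in all 4 libraries, and Psmb11, a beta subunit of the thymus, lay between 0.119 and 0.129 FPKM. Psmb8, which replaces Psmb5 in the immunoproteasome, had 0.694 FPKM in ETOP against 0.637 in CTRL, and 0.798 in NMDA against 0.878 in CTRL2. These 3 genes were below 1 FPKM in every library and enter no fold or count that uses the 1 FPKM limit.

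Psmb9, which replaces Psmb6, had 0.181 FPKM in ETOP against 0.419 in CTRL, and 2.59 in NMDA against 2.37 in CTRL2. At about 2.86 fragments in ETOP it was at the limit of detection there. Its FPKM was 0.353% of that of Psmb6 in ETOP and 1.01% in CTRL, and 1.78% in NMDA and 1.60% in CTRL2. Psmb10, which replaces Psmb7, was the most abundant of the inducible genes, with 4.82 FPKM in ETOP against 5.38 in CTRL, and 17.3 in NMDA against 19.7 in CTRL2. That was 9.44% of Psmb7 in ETOP and 9.50% in CTRL, and 11.0% in NMDA and 13.3% in CTRL2. Psmb9 lies beside Tap1, whose exons overlap it on the other strand, and the sources used here do not say whether fragments were counted by strand.

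In the etoposide pair, core genes lay high relative to all genes, and most regulatory genes also lay above the all-gene median. Fold here is log2 of FPKM plus 1 in ETOP over FPKM plus 1 in CTRL, for genes at 1 FPKM or more in either library, minus the median of the 10681 genes so compared, which was -0.32. Of the 44 measured proteasome genes 36 were above that median, where 50% of all genes are by construction, and their own median was 0.31, with a range from -0.31 to 0.84. The FPKM as deposited were higher in ETOP for 21 of the 44, against 23.3% of all genes, and the median proteasome fold before subtraction was -0.01. None of the 44 was 2-fold from the all-gene median, where the share of all genes was 1.47% on the higher side and 2.08% on the lower. The authors' deposited table of this comparison lists 692 genes, 3.08% of those in the libraries, 12 higher and 680 lower, and 0 proteasome genes are among them.

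All 14 constitutive core genes were above the all-gene median, with a median relative log2 fold of 0.46 and a range from 0.18 to 0.74. Among the 17 regulatory genes 13 were above it, with a median of 0.23 and a range from -0.26 to 0.56. That range runs from percentile 27.8 to 89.7 of all genes compared. As deposited, 11 of the 14 core genes and 4 of the 17 regulatory genes had the higher FPKM in ETOP, against 23.3% of all genes. The regulatory count is thus near the share of all genes. The FPKM of the 14 core genes summed to 636 in ETOP and 569 in CTRL, a ratio of 1.12. Those of the 17 regulatory genes summed to 407 in ETOP and 440 in CTRL, a ratio of 0.923, where the all-gene median ratio was 0.747.

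Counting every measured core gene, Psmb10 included, the core median exceeded the regulatory median by 0.19 on the log2 scale. Between CTRL2 and CTRL, which carry no labelled treatment, the same difference was 0.11, or 0.22 with the libraries scaled to the same median FPKM. With ETOP set against the other control, CTRL2, and both scaled to the same median, it was 0.038, and no replicate shows which of these sizes is the spread between libraries.

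The alpha subunits, which form the outer rings of the core, had a median relative log2 fold of 0.56, all 7 above the all-gene median. Psma5 was the highest of the core, with 14.6 FPKM in ETOP against 10.6 in CTRL and a relative log2 fold of 0.74. Exons of 1700010K24Rik overlap Psma5 on the other strand. Psma4 was the lowest alpha subunit, with 32.9 FPKM in ETOP against 33.3 in CTRL and a relative log2 fold of 0.31, and it shares its listed locus with AY074887. The FPKM ratios of ETOP to CTRL were 1.37 for Psma5, with an approximate 95% interval of 1.12 to 1.68, and 0.989 for Psma4, with an interval of 0.872 to 1.12. These intervals are exact binomial ones that rest on approximate fragment numbers, and they leave out the spread between cultures.

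The structural beta subunits had a median relative log2 fold of 0.38, with 4 of 4 above the all-gene median. Psmb1 was the highest, with 60.0 FPKM in ETOP against 44.8 in CTRL, a ratio of 1.34 with an interval of 1.20 to 1.49. Psmb2 was the lowest, with 46.0 FPKM in ETOP against 47.7 in CTRL, a ratio of 0.964 with an interval of 0.851 to 1.09. Relative to all genes even Psmb2 was above the median, at 0.27 on the log2 scale.

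The 3 catalytic subunits were all above the all-gene median, and only Psmb6 had an interval of its FPKM ratio wholly above 1. Psmb5, the chymotrypsin-like subunit, at chr14:55232957-55236832 in the build mm9, had 40.9 FPKM in ETOP against 36.1 in CTRL, a ratio of 1.13 with an interval of 0.989 to 1.30. Psmb6, the caspase-like subunit, at chr11:70338859-70341360, had 51.4 FPKM in ETOP against 41.4 in CTRL, a ratio of 1.24 with an interval of 1.09 to 1.41. Psmb7, the trypsin-like subunit, at chr2:38443566-38499426, had 51.1 FPKM in ETOP against 56.6 in CTRL, a ratio of 0.903 with an interval of 0.817 to 0.997. On the relative log2 scale they stood at 0.50 for Psmb5, 0.63 for Psmb6 and 0.18 for Psmb7. Exons of Nek6 overlap Psmb7 on the other strand, and the locus listed for Psmb5 is also that of Mir686.

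The ATPases, which unfold the substrate, were above the all-gene median in 6 of 6 cases, with a median relative log2 fold of 0.25. Psmc6 was the highest, with 36.0 FPKM in ETOP against 30.4 in CTRL, a ratio of 1.19 with an interval of 1.08 to 1.30. Psmc2 was the lowest, with 15.6 FPKM in ETOP against 18.7 in CTRL, a ratio of 0.834 with an interval of 0.722 to 0.962. Their FPKM summed to 154 in ETOP and 156 in CTRL.

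The large scaffold subunits of the base, Psmd1 and Psmd2, lay below the all-gene median. Psmd2, at chr16:20651725-20663487 in mm9, had 25.9 FPKM in ETOP against 39.2 in CTRL, a ratio of 0.660 with an interval of 0.608 to 0.716 and the lowest relative log2 fold of the regulatory particle, -0.26. Psmd1 had 20.2 FPKM in ETOP against 29.1 in CTRL, a ratio of 0.693 with an interval of 0.632 to 0.759. Its locus is also listed for Htr2b, and exons of Armc9 overlap it on the same strand. Psmd4, a ubiquitin receptor of the base, had 29.8 FPKM in ETOP against 33.0 in CTRL and a relative log2 fold of 0.18, so that 2 of these 3 genes were below the all-gene median.

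Of the 8 lid genes 6 were above the all-gene median, and the list's median was 0.27. Psmd13 was the highest, with 36.4 FPKM in ETOP against 31.5 in CTRL, a ratio of 1.16 with an interval of 1.05 to 1.27, though Sirt3 overlaps it on the other strand. Psmd14, the lid's deubiquitinase, had 26.7 FPKM in ETOP against 23.2 in CTRL, a ratio of 1.15 with an interval of 1.01 to 1.30. Psmd11 was the lowest, at a ratio of 0.644 with an interval of 0.540 to 0.767. Psmd3 followed with 16.1 FPKM in ETOP against 23.6 in CTRL, a ratio of 0.684, and exons of Gm12356 overlap it on the other strand.

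Activators lay on both sides of the all-gene median. Psme1 and Psme2, which form a cap induced by interferon gamma in other cells, were above the all-gene median, and Psme3, Psme4 and the inhibitor Psmf1 were below it. Psme2 had 5.20 FPKM in ETOP against 3.99 in CTRL, a ratio of 1.30 with an interval of 0.886 to 1.91. Psme4, a nuclear activator linked to DNA repair and histone turnover, had 5.72 FPKM in ETOP against 9.04 in CTRL, a ratio of 0.633 with an interval of 0.562 to 0.711. Psmf1 had 3.47 FPKM in ETOP against 5.94 in CTRL, a ratio of 0.584 with an interval of 0.479 to 0.709, and the lowest relative log2 fold of the 44, -0.31.

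The core chaperones Psmg1 to Psmg4, which guide ring assembly, were above the all-gene median in 4 of 4 cases, with a median of 0.50. Psmg4, the shortest of the genes with a longest transcript of 554 bases, had 14.4 FPKM in ETOP against 9.81 in CTRL and the highest relative log2 fold of the 44, 0.84. Its ratio was 1.47 with an interval of 1.08 to 2.01, and Psmg3 was the lowest of the family with 3.32 FPKM in ETOP against 3.48 in CTRL. Of the base chaperones, Psmd10 had 3.57 FPKM in ETOP against 2.38 in CTRL and Psmd5 had 8.03 FPKM in ETOP against 11.9 in CTRL. In all, the interval of the FPKM ratio lay above 1 for 11 of the 44 genes and below 1 for 10. Over 10550 genes with a known transcript length it lay above 1 for 7.79% and below 1 for 54.8%, and the all-gene median ratio was 0.747.

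**Figure D2:**
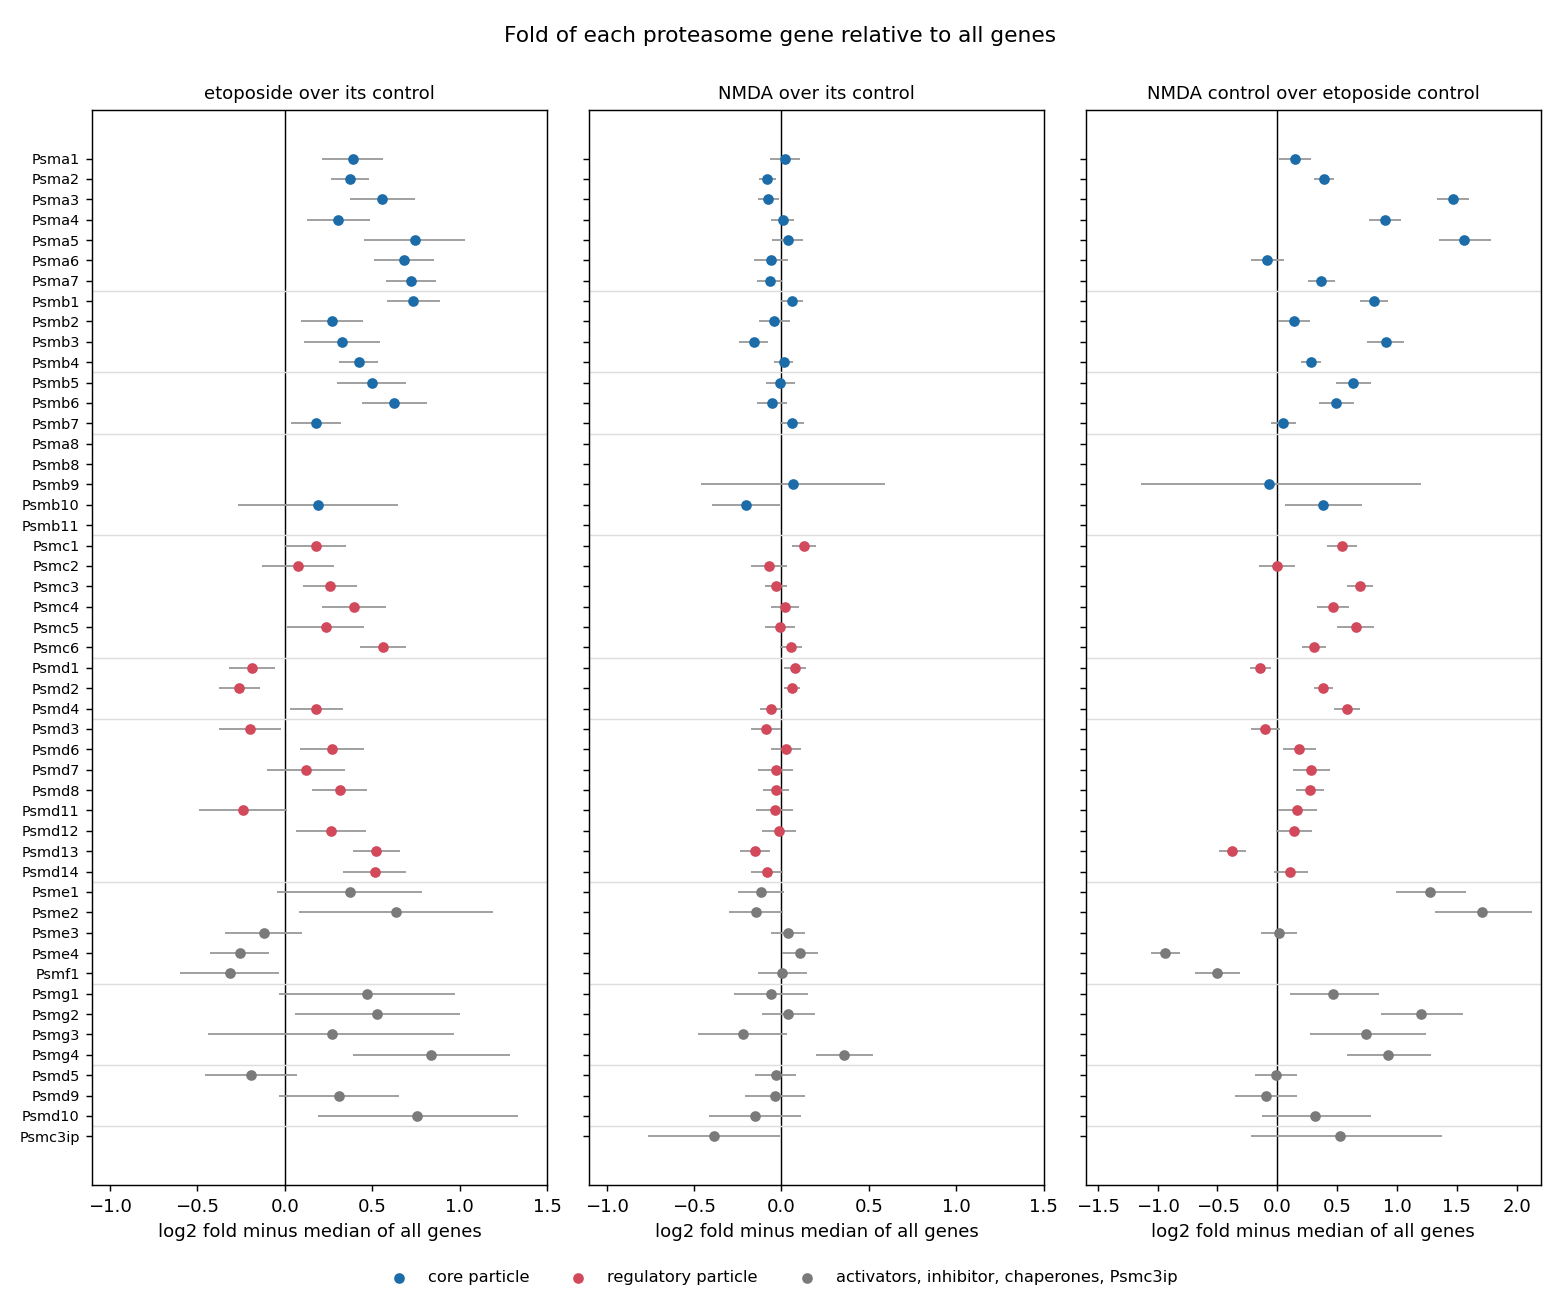
Log2 fold of each proteasome gene minus the median of all genes (x axis) by role, for ETOP over CTRL, NMDA over CTRL2 and CTRL2 over CTRL; each point is 1 pair of libraries and each bar an approximate 95% interval for counting error only, drawn with the width of the log2 FPKM ratio. With etoposide all 14 constitutive core genes (blue) lie right of 0. With NMDA 44 of 46 genes lie within 0.25 of 0, as do most of all genes compared. The axis of the controls panel is wider.

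Genes with long transcripts made up the low end. The longest annotated transcript of the 8 genes below the all-gene median (Psmd1, Psmd2, Psmd3, Psmd11, Psme3, Psme4, Psmf1 and Psmd5) was at least 2020 bases, and the 32 measured genes with transcripts under 2 kb were all above it. Of the 12 genes with longer transcripts 4 were above the median, namely Psma2, Psma3, Psmc6 and Psmd9. Across the 44 genes the fold went with transcript length at a Spearman rho of -0.58, and across 10550 genes of the library at -0.45. Within the 14 core genes rho was 0.09 and within the 17 regulatory genes -0.42.

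The median longest transcript was 1101 bases for the constitutive core and 1785 for the regulatory particle. With all genes divided into 5 equal classes of transcript length, the shortest class had a median relative log2 fold of 0.34, and the 27 proteasome genes in it had 0.40. With each gene set against the median of its own class, the median of the 44 genes was 0.057, with 25 of 44 above. Of the 14 constitutive core genes 10 were then above, with Psma4, Psmb2, Psmb3 and Psmb7 below, and the core still exceeded the regulatory particle by 0.18. Against CTRL2 in place of CTRL the median of the proteasome genes was -0.045 with 21 of 46 and 8 of the 14 core genes above, a pair that lies on different FPKM scales. Once the libraries were scaled to the same median it was 0.29, with 10 of the 14 core genes above. The neuronal marker sum, as deposited, was 326 FPKM in ETOP against 540 in CTRL. Relative to all genes the 6 markers had a median log2 fold of -0.53, from -1.15 for Rbfox3 to 0.20 for Stmn2. Of these 6 markers 5 were below the all-gene median. The part of this difference in the proteasome folds was not tested.

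**Figure D3:**
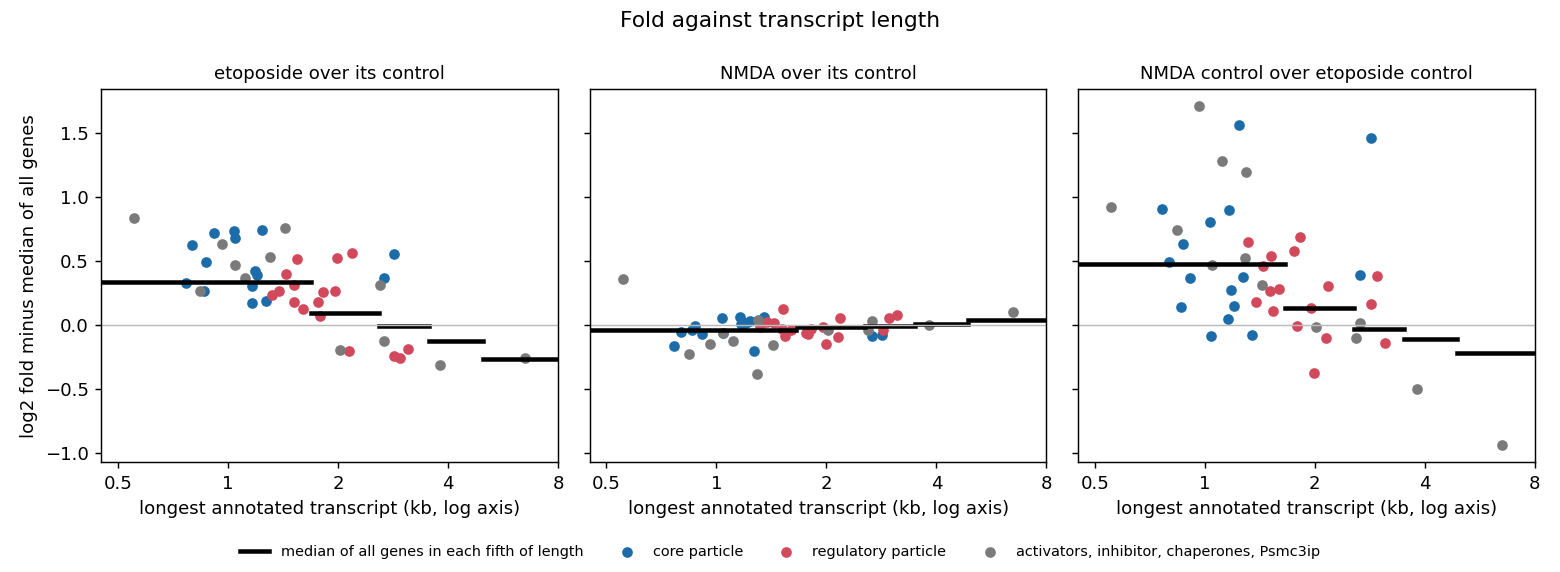
Log2 fold minus the median of all genes (y axis) against the longest annotated transcript in kb (log axis) for ETOP over CTRL, NMDA over CTRL2 and CTRL2 over CTRL; points are proteasome genes and black bars the median of all genes in each of 5 equal classes of transcript length. The bars step down with length in the ETOP and control panels, and are nearly flat with NMDA.

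In the NMDA pair proteasome genes, like most genes, lay close to the all-gene median. The all-gene median of log2 fold was 0.02 over 13028 genes, and 18 of 46 measured proteasome genes were above it, where 50% of all genes are by construction. Their median relative log2 fold was -0.03, and 44 of the 46 lay within 0.25 of the all-gene median. Most of all genes lay as close, since folds of -0.23 (Tapbp) and 0.23 (Huwe1) stood at percentiles 8.67 and 96.0. No proteasome gene was 2-fold from that median, where the share of all genes was 0.414% on the higher side and 0.729% on the lower. The authors' deposited table of this comparison holds 63 genes (0.281% of genes), and 0 were proteasome genes. As deposited, the FPKM were higher in NMDA for 21 of the 46, against 57.2% of all genes.

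The medians of the core and the regulatory particle differed by 0.00499, at -0.02 for the 14 core genes and -0.03 for the 17 regulatory genes. The core FPKM summed to 2037 in NMDA and 2033 in CTRL2, and the regulatory FPKM to 1401 in NMDA and 1379 in CTRL2. Psmb5 had 145 FPKM in NMDA against 143 in CTRL2, Psmb6 had 146 against 148, and Psmb7 had 157 against 148. The interval of the ratio for Psmb7, 1.01 to 1.11, lay just above 1, and those of the other two catalytic subunits included it.

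The alpha subunits lay between Psma2, with 123 FPKM in NMDA against 127 in CTRL2, and Psma5, with 88.6 against 84.9. Psmb3 was the lowest of the core beside Psmb10, with 156 FPKM in NMDA against 171 in CTRL2, a ratio of 0.911 with an interval of 0.860 to 0.965. Psmb1 had 212 FPKM in NMDA against 200 in CTRL2, a ratio of 1.06 with an interval of 1.01 to 1.11. Those intervals are narrower than in the etoposide pair because the NMDA and CTRL2 libraries held more fragments on these genes.

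In the regulatory particle the ATPase Psmc1 was the highest, with 123 FPKM in NMDA against 110 in CTRL2, a ratio of 1.11 with an interval of 1.06 to 1.17. It had 26.7 FPKM in ETOP against 29.6 in CTRL. Psmd13 was the lowest, with 56.6 FPKM in NMDA against 61.8 in CTRL2, a ratio of 0.916 with an interval of 0.863 to 0.972. The scaffold genes Psmd1 and Psmd2, below the all-gene median with etoposide, stood slightly above it here. Psmd1 had 72.3 FPKM in NMDA against 67.3 in CTRL2, and Psmd2 had 138 against 130. Psmd4 had 123 FPKM in NMDA against 126 in CTRL2, Psmd6, the highest lid gene, 83.7 against 80.8, Psmc2 46.6 against 48.2 and Psmc6 102 against 96.2.

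Psmg4, the core assembly chaperone, was the proteasome gene furthest above the all-gene median with NMDA. It had 65.9 FPKM in NMDA against 50.3 in CTRL2, a ratio of 1.31 with an interval of 1.17 to 1.47, and its fold stood at percentile 98.7 of all genes compared. It was thus the highest proteasome gene by fold in both treatment pairs, and between the controls its relative log2 fold was 0.92. The gene, at chr13:34254846-34270041 in mm9, had about 93.3 fragments in ETOP and 78.6 in CTRL, so its value there is the less precise of the pair of comparisons.

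At the other end, Psmc3ip had 4.27 FPKM in NMDA against 5.76 in CTRL2, a ratio of 0.741 with an interval of 0.569 to 0.962, and 0.526 FPKM in ETOP against 0.875 in CTRL, below the limit for a fold. It shares its listed locus with Mlx. Psmg3 had 15.3 FPKM in NMDA against 17.7 in CTRL2, Psmd10 8.65 against 9.53 and Psmd5 30.8 against 30.9. Of the activators and inhibitor, Psme4 had 13.4 FPKM in NMDA against 12.1 in CTRL2, Psme2 36.6 against 39.9 and Psmf1 11.5 against 11.3. Over all 46 genes the interval of the FPKM ratio lay above 1 for 8 and below 1 for 4, where the shares of 12788 genes were 21.1% and 11%. All of these proteasome genes except Psmg4 and Psmc3ip were within 0.25 of the all-gene median on the log2 scale, as were most of all genes.

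The controls show how far libraries without a labelled treatment stood apart. Over 12987 genes the median ratio of FPKM in CTRL2 to FPKM in CTRL was 3.12, and 98.4% of genes and all 46 measured proteasome genes were higher as deposited. Relative to the all-gene median 36 of 46 proteasome genes were above, with a median of 0.34, or 0.10 with the libraries scaled to the same median. At least 2-fold above stood 5 of the 46 genes, against 8.02% of all genes, and none was 2-fold below, against 2.96%. They were Psma3 with 89.0 FPKM in CTRL2 against 12.03 in CTRL, Psma5 with 84.9 against 10.6, Psme1 with 46.5 against 6.82, Psme2 with 39.9 against 3.99 and Psmg2 with 29.2 against 4.26. The proteasome median of 0.34 between the controls stands beside 0.31 for ETOP over CTRL and -0.03 for NMDA over CTRL2. After scaling to the same median FPKM the 3 values were 0.10 between the controls, 0.40 with etoposide and -0.03 with NMDA.

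Genes listed here as partners of the proteasome had a lower median fold in the etoposide pair than the 44 genes above. Of these 19 genes 5 were above the all-gene median and 14 below, with a median relative log2 fold of -0.21. Adrm1 and Shfm1 among them encode regulatory particle subunits that the symbol rule misses, at relative log2 folds of -0.34 and 0.35. The median longest transcript was 3169 bases for the 19 and 1435 for the 44 proteasome genes. The part of length in this contrast was not tested. Pomp, the maturation factor of the core, was the highest, with 47.2 FPKM in ETOP against 40.6 in CTRL, and 202 in NMDA against 177 in CTRL2. Ube3c, a ubiquitin ligase bound to the proteasome, had 8.30 FPKM in ETOP against 15.6 in CTRL, and 39.6 in NMDA against 36.1 in CTRL2. AI314180, the older symbol of Ecpas, an adaptor of the proteasome, had 8.50 FPKM in ETOP against 15.6 in CTRL, and 28.8 in NMDA against 27.2 in CTRL2. Ubqln2, a shuttle of ubiquitinated proteins, had 13.9 FPKM in ETOP against 24.9 in CTRL, and 73.2 in NMDA against 59.8 in CTRL2. With NMDA 15 of the 19 were above the all-gene median, with a median of 0.07.

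Regulators of proteasome gene expression were mostly below the all-gene median with etoposide, 8 of 11 measured, with a median of -0.30. The median longest transcript of these 11 was 3097 bases, and the part of length was not tested. Nfe2l1 itself had 9.46 FPKM in ETOP against 21.2 in CTRL, a relative log2 fold of -0.76, and 51.5 in NMDA against 56.7 in CTRL2. Nfe2l2, its relative in oxidative stress, had 1.91 FPKM in ETOP against 4.396 in CTRL, and 16.7 in NMDA against 18.6 in CTRL2. Maff, a small Maf partner of both, had 1.89 FPKM in ETOP against 1.07 in CTRL, and 2.34 in NMDA against 3.12 in CTRL2. Nfya, a subunit of the factor that binds CCAAT, had 3.59 FPKM in ETOP against 2.94 in CTRL, and 9.65 in NMDA against 8.63 in CTRL2. With NMDA 5 of 12 were above the all-gene median.

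The 24 genes of the wider ubiquitin system were evenly divided with etoposide, 12 above and 12 below. Rps27a, which encodes ubiquitin fused to a ribosomal protein, had 23.6 FPKM in ETOP against 16.6 in CTRL, and 453 in NMDA against 480 in CTRL2. Huwe1, a very large ubiquitin ligase, had 5.45 FPKM in ETOP against 11.7 in CTRL, and 31.3 in NMDA against 25.97 in CTRL2. Nploc4, a cofactor of the unfolding ATPase Vcp, had 5.34 FPKM in ETOP against 10.7 in CTRL, and 20.4 in NMDA against 20.7 in CTRL2. Rps27a was thus above the all-gene median with etoposide, at a relative log2 fold of 0.80, and Huwe1 and Nploc4 were below it, at -0.65 and -0.56. With NMDA 19 of the 24 were above the all-gene median, with a median of 0.02.

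Interferon and antigen presentation genes, which share regulation with the inducible subunits, lay mostly below the all-gene median by fold. With etoposide 2 of the 6 measured genes were above the all-gene median, and with NMDA 1 of 9, with a median of -0.16. Tapbp, which loads peptides, had 1.39 FPKM in ETOP against 3.41 in CTRL, and 13.7 in NMDA against 16.04 in CTRL2. H2-K1, a class I molecule, had 2.505 FPKM in ETOP against 4.21 in CTRL, and 11.7 in NMDA against 15.4 in CTRL2. Its light chain gene B2m had 7.20 FPKM in ETOP against 12.2 in CTRL, and 51.8 in NMDA against 52.0 in CTRL2. Ifit3 was below 1 FPKM in ETOP, CTRL and NMDA, at 0.124, 0.309 and 0.621, and had 1.00 in CTRL2.

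**Figure D4:**
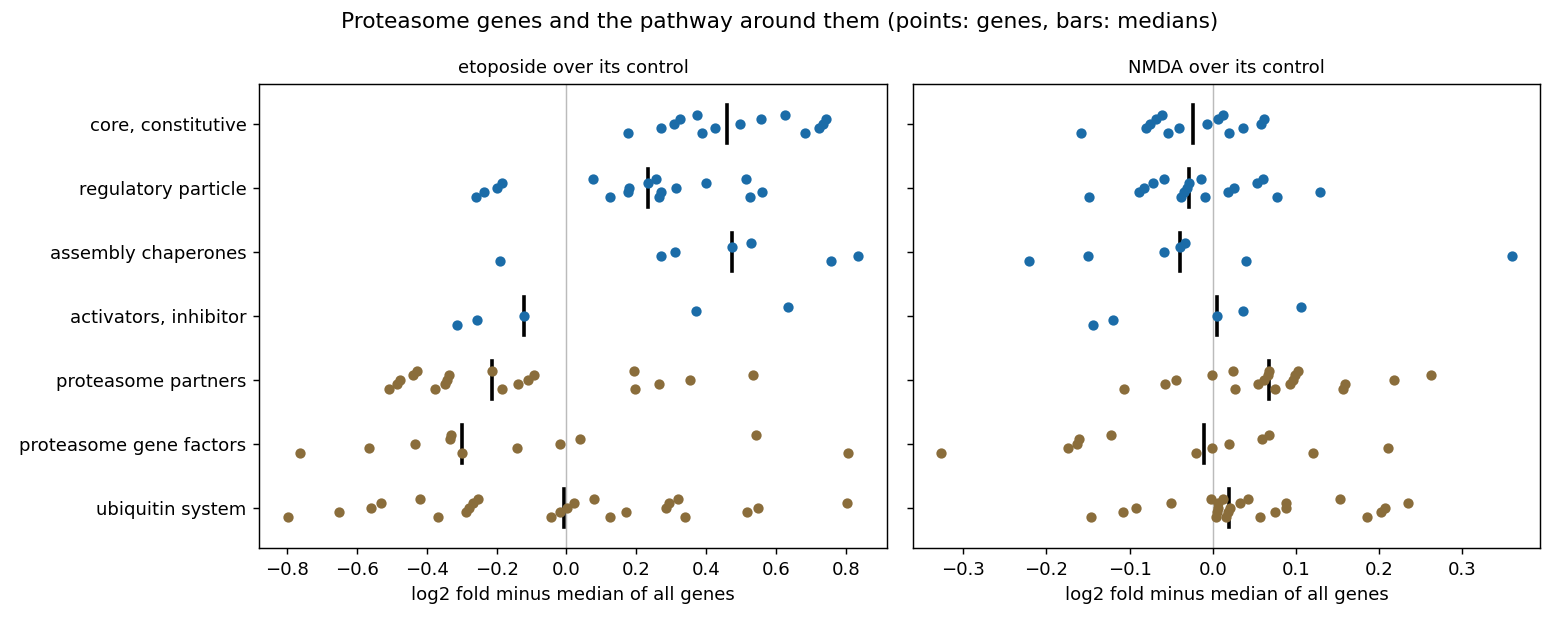
Log2 fold minus the median of all genes (x axis) for gene groups (rows) in ETOP over CTRL and NMDA over CTRL2; each point is a gene, black bars are medians, proteasome genes are blue and other genes of the pathway brown. With etoposide the constitutive core median is 0.46 and the regulatory median 0.23 against -0.21 for proteasome partners, and with NMDA the medians of all rows shown lie between -0.04 and 0.07. The partners include the subunit genes Adrm1 and Shfm1, and their median longest transcript is 3169 bases against 1435 for the 44 proteasome genes.

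Genes of other large complexes were taken by symbol, and the patterns used also admit Rps6k kinases and Ndufaf assembly factors. The set of cytosolic ribosomal protein genes had a median relative log2 fold of 0.65 with etoposide over 89 measured genes. The set of nuclear genes of oxidative phosphorylation had 0.44 over 84, against 0.31 for the 44 proteasome genes. With NMDA the medians were -0.03 for ribosomal proteins, -0.02 for oxidative phosphorylation and -0.03 for the proteasome. Between CTRL2 and CTRL they were 2.04, 0.84 and 0.34. With 1 library per group these differences between gene sets could not be tested, and the shift with etoposide is not called particular to the proteasome.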

How the data were processed

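RNA was measured in 4 libraries of cultured cortical neurons that were prepared, per the labels' protocols, from total RNA with a TruSeq kit for paired-end reads. Per the submitters' processing notes, the build was mm9 and the tools HOMER, Picard, BWA, Cuffdiff, Cufflinks 2.0.0, Bowtie and TopHat, in no stated role or order. FPKM values are the authors' own, used as deposited, 1 per gene and library. Mir5109 held between 51.9% and 76.5% of the FPKM sum of a library. The median FPKM ratio of CTRL2 to CTRL was 3.12, so values were compared within a pair. CTRL2 over CTRL is given as the difference between libraries without a labelled treatment. The authors' deposited tables of 692 and 63 genes hold FPKM equal to those of the library tables.

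Groups followed the sample titles. Fold was log2 of FPKM plus a pseudocount of 1, for genes at 1 FPKM or more in either library, minus the median of all genes compared. Low genes are understated on this scale. Genes past 2-fold were counted. No test was run, as each group has 1 library. Fragment numbers came from the steps of low values in single-exon genes and are approximate, with 1 fragment on 1 kb at 0.0857 FPKM in ETOP, 0.0692 in CTRL, 0.0546 in NMDA and 0.0511 in CTRL2. The 95% intervals of ratios are exact (Clopper-Pearson) and, like the floor of 3 fragments, cover counting error only. Transcript lengths and overlaps came from the GENCODE annotation of mm9, matched for all 49 genes, and the starts in the tables count from 0, so 1 was added. Of the 49 genes 5 share a listed locus with another gene and 12 in all have exons that overlap another gene.

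The genes, lists and rules were chosen with earlier results of these data known. Values in all libraries are given for the catalytic and inducible subunits and for the highest and lowest fold of each list in each treatment pair, and for up to 4 genes of each pathway list by size of fold. Some genes that this rule takes are left out of the text but stay in the counts and medians. Psmb4, Psmd3, Psmd14 and the genes 2-fold apart between the controls were named after their values were seen. The alternatives tried were another pseudocount, no filter or a stricter one, median scaling, core and regulatory genes alone, centring on 5 classes of locus span and the other control, and 3 were added after seeing the data. The scripts were tested on simulated data. Python 3.11.15, pandas 2.3.3, numpy 2.4.6, scipy 1.17.1 and matplotlib 3.10.9 were used. Protein sequences and the 12 chromatin samples were not used here.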

Additional observations from a re-analysis of the deposited data

How the results depend on the processing

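No paired analysis was possible because each group has 1 library and no replicate number is shared beyond that. Each comparison rests on 1 library per group, and low genes such as Psmb9 also rest on few fragments.

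The median relative log2 fold of proteasome genes with etoposide, 0.31, was 0.40 with a pseudocount of 0.1 FPKM, 0.11 with no filter on low values, 0.41 for genes at 5 FPKM or more, 0.40 with median scaling, 0.20 when centred on classes of locus span, 0.057 when centred on classes of transcript length and -0.045 against the other control. The core minus regulatory difference of 0.19 was 0.25 with span centring, 0.12 against the other control and 0.038 against it with median scaling, and lay between 0.15 and 0.23 in the remaining settings. All 14 constitutive core genes were above the all-gene median, but 13 were with no filter (not Psmb7), 10 on transcript length, 8 against the other control and 10 with scaling as well. The count of 36 above the all-gene median was 21 of 46 against the other control. The count of 0 at 2-fold was 1 (Psme2) against the other control and 3 (Psma6, Psmd13 and Psmc3ip) with scaling as well.

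With NMDA the median of -0.03 was -0.019 with no filter, -0.046 at 5 FPKM or more, -0.013 when centred on span and -0.00627 on transcript length, and it turned to 0.26 against the other control and 0.049 with scaling as well. The core minus regulatory difference of 0.00499 turned to -0.00444 with no filter, -0.012 at 5 FPKM or more and -0.047 without overlapping genes, and was 0.064 against the other control and 0.13 with scaling. The count above the median was 36 in place of 18 against the other control, and the count at 2-fold was 6, or 5 with scaling, in place of 0.

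Between the controls the median of 0.34 was 0.12 with a pseudocount of 0.1 FPKM, 0.56 with no filter, 0.23 at 5 FPKM or more, 0.10 with median scaling, 0.31 for core and regulatory genes alone, 0.25 centred on span, 0.32 without overlapping genes and -0.00612 centred on transcript length. Its core minus regulatory difference of 0.11 was 0.23 with the smaller pseudocount, 0.22 with median scaling, 0.17 for constitutive genes alone, -0.019 centred on span and -0.028 on transcript length. The count above the median was 23 in place of 36 on transcript length, and the count at 2-fold was 10 with no filter, 2 for core and regulatory genes alone, 3 on transcript length and 3 without overlapping genes, in place of 5. With a pseudocount of 0.1 FPKM, and at 5 FPKM or more, it was 6, with Psme4 then 2-fold below the all-gene median. With median scaling it stayed 5, but Psme4 entered at -1.04 and Psmg2 left at 0.98. Against the other control the libraries lie on different scales, and all-gene medians were -1.67 for etoposide and 1.35 for NMDA. The cause of the other shifts was not tested. Of the values of single genes under the alternatives, 362 moved by more than their counting interval and 832 did not. Of these 1194 values 165 changed sign, 79 of them in settings that keep the control.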
